A study of Triticum aestivum with 6 samples.

Results

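Wheat germ agglutinin transcripts were present in every library of purple grain and at or near 0 in every library of white grain. The genes described here are the 10 of 107891 in the deposited table whose description contains the words agglutinin isolectin. They include TraesCS1D02G328900 and TraesCS1B02G340200, which were picked because their levels differed between the grain types. The difference between white and purple grain is therefore given for the 10 genes as a description, without a test. The study measured RNA in the grain of bread wheat (Triticum aestivum) of white and of purple grain colour, sampled 30 days after flowering, and is concerned with anthocyanins, the pigments of coloured grain. There were 3 libraries per grain type, white replicates 1 to 3 and purple replicates 1 to 3, from pot-grown plants in a climate chamber. No further treatment and no cultivar names were given in the sources used here, so grain colour cannot be told apart from any other genetic difference between these wheats.

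Wheat germ agglutinin is a small, cysteine-rich lectin that binds chitin, the polymer of N-acetylglucosamine in fungal walls and insect guts, and it is built from repeats of the hevein domain. The lectin is known from the embryo of the grain, the germ after which it is named, and from root tips. It is made as a precursor whose carboxy-terminal extension directs it to the vacuole and is then removed, and its synthesis in cereal embryos responds to abscisic acid. Bread wheat carries A, B and D subgenomes, and a lectin gene on each of the group 1 chromosomes gives rise to the isolectins that are purified together as wheat germ agglutinin.

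Each library held between 78660932 and 102868886 counts, over 65058 to 68885 genes. Genes of gliadins, glutenins, avenin-like proteins and puroindolines, products of the starchy endosperm, held 10.2% to 25.3% of the summed FPKM of a library, where FPKM is the authors' level per gene length and library size. Grain is the labelled tissue, although stems and buds are what the extraction text mentions. Purple replicate 3 stood apart from its group. Its log2 expression correlated across genes, not independent of each other, at 0.836 to 0.864 with the white libraries, against 0.723 to 0.822 for purple replicates 1 and 2. It was still closer to the other purple libraries, at 0.885 to 0.891, while purple replicates 1 and 2 correlated with each other at 0.945. Separate plants for each library are not stated in the labels, and p-values given for other genes therefore rest on the spread between the libraries alone, which may be technical.

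The 10 genes fell on chromosome groups 1, 3 and 7, and all 10 were annotated on the minus strand. Coordinates are as deposited, and the genome build is not given in the sources used here. TraesCS1A02G326800 (chromosome 1A, 516739314 to 516740335) is described as the precursor of agglutinin isolectin 1, isolectin A or WGA1. TraesCS1B02G340200 (1B, 568005579 to 568006599) is described as the precursor of isolectin 3 or WGA3, and TraesCS1D02G328900 (1D, 420378924 to 420379950) as that of isolectin 2, isolectin D or WGA2. These 3 gene models span 1021 to 1027 bp. The models TraesCS1A02G326600 and TraesCS1B02G340000 lie beside the first pair, 11967 bp and 25746 bp away, and carry the description of isolectin 2 from the wild diploid Triticum urartu. On 1D the lectin gene beside the isolectin gene, 140 kb away, is TraesCS1D02G328700, which is described as a root-specific lectin and falls outside the name rule. In each of the 3 pairs the gene between the lectin genes is described only as a hypothetical protein, with the same description on 1B and 1D.

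The group 3 genes TraesCS3A02G397300, TraesCS3B02G429200 and TraesCS3D02G391100 are described as isolectin 2 of Triticum urartu and span 874 to 941 bp. They alone among the 10 carry the GO term chitin binding in the deposited table. The group 7 genes TraesCS7B02G367100 and TraesCS7D02G453500 are described as putative isolectin 3 of the goatgrass Aegilops tauschii and span 642 bp each. The 8 genes of groups 1 and 3 carry the KEGG orthology entry K01183 and the enzyme number of chitinase, whereas those of group 7 carry neither. Wheat germ agglutinin itself is known as a lectin and not as an enzyme.

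The D copy was the most abundant of the 10. TraesCS1D02G328900 had 0 counts in each white library, and 3787, 12812 and 7566 counts in purple replicates 1, 2 and 3. Its level was 33.9, 121 and 85.8 FPKM in those purple libraries, a mean of 80.2 ± 43.8 (SD, n = 3). Purple replicate 1 was the lowest and purple replicate 2 the highest, and no white library came near them. The B copy behaved alike: TraesCS1B02G340200 had 0 counts in each white library and 28.0, 85.9 and 76.4 FPKM in the purple ones, a mean of 63.5 ± 31.0. Since a count of 0 still allows 3 counts, the white levels may be as high as 0.0341 to 0.0381 CPM (counts scaled to the library total) in these libraries. Against 3 counts per white library, the D copy was at least 2390-fold and the B copy at least 1880-fold higher in purple grain by mean CPM. These bounds cover counting error only.

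The A copy, which encodes isolectin 1, was the least abundant of the 3 and the only one of them counted in white grain. TraesCS1A02G326800 had 11, 4 and 0 counts in white replicates 1, 2 and 3, which is 0.124, 0.0423 and 0 FPKM. In purple replicates 1, 2 and 3 it had 1095, 4335 and 1920 counts, or 9.84, 41.1 and 21.9 FPKM, a mean of 24.3 ± 15.8. The groups did not overlap, and the ratio of the mean CPM was 415. It rests on 15 counts in white grain and ran from 273 without purple replicate 2, with 277 without white replicate 3, to 1062 without white replicate 1. Near-identical copies can share reads, so a handful of counts at a single copy, and the division of reads among the copies, are uncertain. On the scale of log2(mean FPKM + 0.1), purple minus white grain was 9.65 for the D copy, 9.31 for the B copy, 7.29 for the A copy and 9.57 for the sum of the 10 genes.

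**Figure D1:**
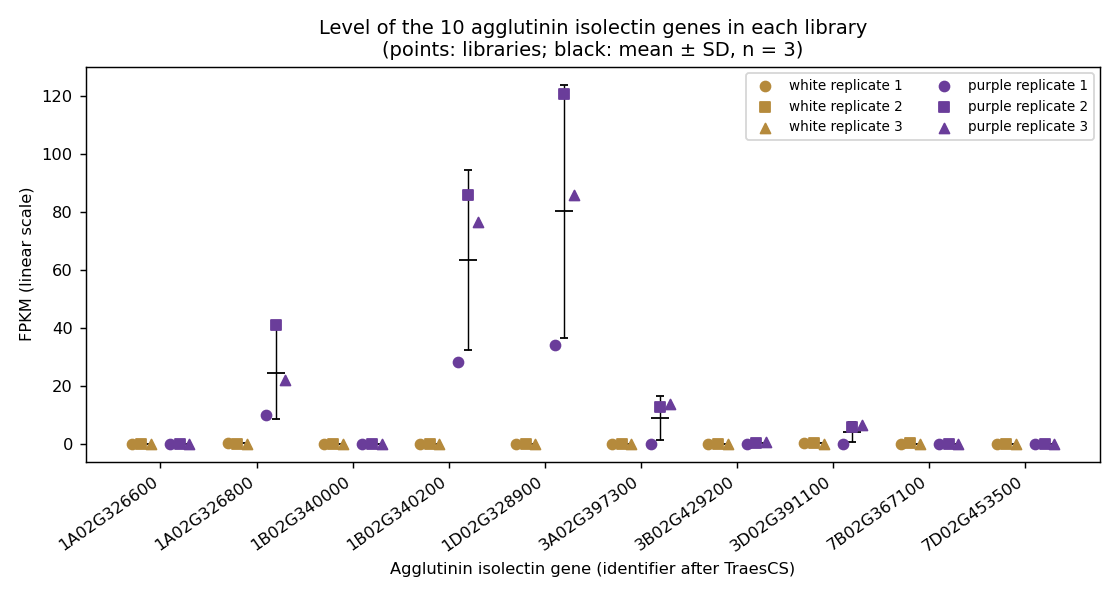
Level of each of the 10 agglutinin isolectin genes (FPKM, linear scale) in the 3 white and 3 purple libraries, with the mean ± SD of each grain type in black. The 1D and 1B copies reach 121 and 85.9 FPKM in purple replicate 2, and every gene is near 0 in the 3 white libraries.

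Of the 10 genes, 5 averaged 0.5 FPKM or more over the 6 libraries and passed the filter. Of these 5, the 3 group 1 copies had all purple libraries above all white ones, as did 13.3% of all 48492 genes that passed, and the D and B copies had 0 counts in all white and counts in all purple libraries, as did 0.606% of those genes. The 10 were chosen on this contrast, so nothing is read from these shares. Without the filter, 1552 genes of the whole table had counts in the 3 purple libraries and none in the 3 white ones. By mean purple FPKM, the D and B copies held ranks 2 and 3 among them, after TraesCS6A02G103300, described as a hypothetical protein, with 109 FPKM. Among all genes of a purple library, the D copy held rank 2983 in purple replicate 1, 866 in purple replicate 2 and 875 in purple replicate 3.

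The group 3 genes were counted in purple replicates 2 and 3 and not in purple replicate 1. TraesCS3A02G397300 had 0, 12.6 and 13.7 FPKM in purple replicates 1, 2 and 3 and 0 counts in each white library. TraesCS3D02G391100 had 0, 5.77 and 6.38 FPKM in the purple libraries, with 4, 11 and 0 counts in the white ones. TraesCS3B02G429200 was low throughout, with 0, 16 and 41 counts in the purple libraries and 0 in the white ones. Purple replicate 1, with 102868886 counts the deepest library, thus overlapped the white libraries for the whole of group 3. It was also the purple library with the lowest level of each group 1 copy. In the other purple libraries the A to D ratio of group 3 was 2.18 and 2.15.

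The remaining genes were silent or nearly so. TraesCS1A02G326600, TraesCS1B02G340000 and TraesCS7D02G453500 had 0 counts in all 6 libraries, and TraesCS7B02G367100 had 4 counts in white replicate 2 alone. Thus in both pairs of neighbouring agglutinin genes, on 1A and on 1B, counts were found at the member described as a named isolectin precursor and none at the other. The root-specific lectin gene on 1D, outside the name rule, had 10 and 2 counts in purple replicates 2 and 3 and 0 elsewhere. The other 5 genes with agglutinin in their description, TraesCS2A02G589100 and TraesCSU02G137400 (putative agglutinin) and TraesCS4A02G357700, TraesCS7D02G495000 and TraesCSU02G075400 (agglutinin-2), had 0 counts in every library.

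The copies kept their order within each purple library. The D copy supplied 47.2%, 48.8% and 46.6% of the summed FPKM of the group 1 copies in purple replicates 1, 2 and 3 (mean 47.5% ± 1.11, SD, n = 3). The B copy supplied 39.1%, 34.7% and 41.5%, and the A copy 13.7%, 16.6% and 11.9%. The order D, B, A thus held in 3 of 3 libraries. As levels, the mean FPKM of the D and B copies differed by less than the SD of either, and the mean FPKM of the B copy exceeded that of the A copy by more than the SD of either. The D copy was 1.21, 1.41 and 1.12 times the B copy in purple replicates 1, 2 and 3. Counted over all 10 genes, the D copy supplied 44.8% ± 2.69. Group 3 supplied 0%, 6.94% and 10.1% of the sum over the 10 genes, which was 71.8, 266 and 205 FPKM in purple replicates 1, 2 and 3.

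Genes typical of embryo and aleurone, the tissues in which late embryogenesis, oil body and embryo globulin genes are mainly active, were also higher in purple grain as a sum. The 97 genes of that marker list summed to 3802, 4103 and 1869 FPKM in white replicates 1, 2 and 3 and to 20975, 24586 and 6967 in purple replicates 1, 2 and 3. Of 80 tested, 17 were higher in purple grain by edgeR (adjusted p under 0.05, log2 difference of 1 or more), where 2.87% of all tested genes were higher. Their median log2 difference was 2.26, against 0.02 over all tested genes. The count of 17 fell to 1, 3, 1 and 0 without white replicate 2, without white replicate 3, without purple replicate 1 and without purple replicate 2, and rose to 36 without purple replicate 3. The embryo storage globulin gene TraesCS5A02G432100 had 300, 341 and 26.0 FPKM in white and 3927, 4699 and 1187 FPKM in the purple libraries (adjusted p by edgeR = 0.0822). In a bulk sample, fewer cells of a type and less RNA per cell cannot be told apart.

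White grain held embryo and aleurone transcripts, while its agglutinin counts were at or near 0. Of the 97 marker genes, 7 had 0 counts in all 6 libraries. The Em protein gene TraesCS1B02G237600 was among 7 others (7.22%) that had 0 counts in the white libraries alone, against 6.56% of the whole table, and 2 had 0 counts in the purple libraries alone. Per 1000 FPKM of the marker list, the group 1 agglutinin copies stood at 0.0327, 0.0103 and 0 FPKM in white replicates 1, 2 and 3. The same quantity was 3.42, 10.1 and 26.4 in purple replicates 1, 2 and 3. White agglutinin counts at or near 0 keep the white values near 0 whatever the marker sum, so nothing is read from this separation. Within purple grain the orders differed: purple replicate 3 had the lowest marker sum and the highest agglutinin level per marker FPKM, and purple replicate 1 had a high marker sum and the lowest agglutinin level. The part of embryo or aleurone RNA in the difference between the grain types was not tested. Cell wall genes typical of roots, where the lectin is also known, summed to 82.7 to 114 FPKM in white and 106 to 171 FPKM in the purple libraries, with overlapping groups. Of 109 such genes, 44 had 0 counts throughout, and 33 (30.3%) had 0 counts in white grain and counts in at least 1 purple library, against 6.56% of the whole table. These 33 together reached 3.59, 6.78 and 19.6 FPKM in purple replicates 1, 2 and 3. Of the 17 root genes tested, edgeR and limma called 0. DESeq2 called 4 higher, against 9.41% of all tested genes. At an unadjusted p under 0.05 by edgeR, 5 were higher, against 14.2%, and 0 lower, against 12.6%. The part of root RNA in the difference was not tested. Genes of storage prolamins and puroindolines, the starchy endosperm list, had 0 higher and 19 lower genes of 107 tested by edgeR, against 2.32% lower of all tested genes, and 9 to 27 lower when single libraries were left out. Photosynthesis genes, typical of the green layer of the pericarp, summed to 418 to 505 FPKM in white and 64.5 to 394 FPKM in the purple libraries. EdgeR called 0 of the 69 tested, with 6 lower at an unadjusted p under 0.05, against 12.6% of all tested genes. DESeq2 and limma called 2 lower each, against 6.2% and 3.47%. The log2 difference was positive for 7 of the 69, and its median was -1.09, against 0.02 over all tested genes. Without purple replicate 3, edgeR called 42 lower, where it called 2417 lower over all tested genes.

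**Figure D2:**
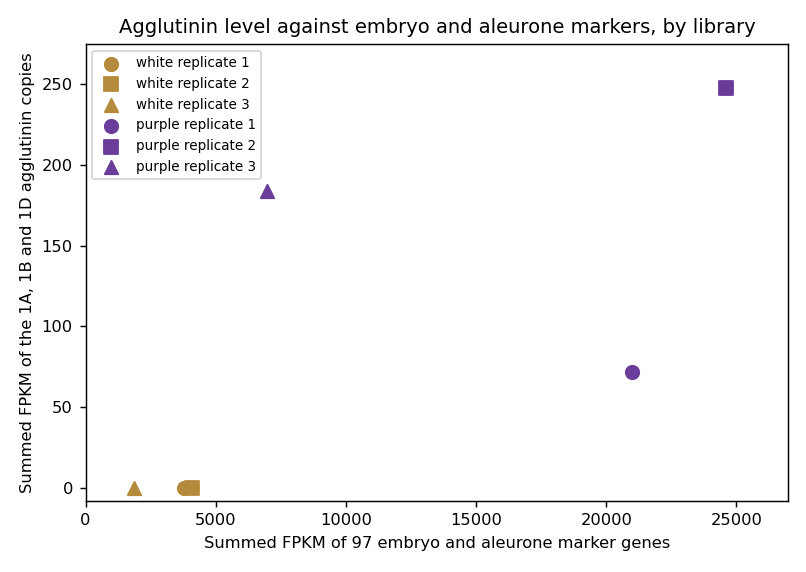
Summed FPKM of the 1A, 1B and 1D agglutinin copies (y axis) against the summed FPKM of 97 embryo and aleurone marker genes (x axis), 1 point per library. White libraries lie at 0.124 FPKM of agglutinin or less with 1869 to 4103 FPKM of markers, and purple replicate 3 has 184 FPKM of agglutinin at 6967 FPKM of markers.

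The genes around the agglutinin copies were called higher by edgeR about as often as all tested genes. Of 95 tested genes within 1 Mb of any of the 10, 2 were higher in purple grain by edgeR, against 2.87% of all tested genes. None was lower by edgeR, against 2.32%, and limma on log2(FPKM + 1) called 4 higher and 1 lower, where it called 3.17% and 3.47% of all tested genes. DESeq2 called 12 of the 95 higher and 0 lower, where it called 9.41% and 6.2% of all tested genes. The 4 genes to the right of each expressed group 1 copy were all expressed in both grain types. On each chromosome the first 3 are described only as predicted or hypothetical proteins, and the last encodes a protein of the signal recognition particle, which brings nascent secreted proteins to the endoplasmic reticulum. On 1D this gene, TraesCS1D02G329300, stood at 45.9 ± 5.3 FPKM (SD, n = 3) in the white and 30.1 ± 3.1 FPKM in the purple libraries (adjusted p by edgeR = 0.159). The nearest expressed gene on 1A, TraesCS1A02G326900 at 28.9 kb, had 23.5 ± 3.7 and 16.6 ± 3.7 FPKM (adjusted p by edgeR = 0.308). On the left side the gene next to each of the 3 copies had 0 counts in every library.

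The called neighbours were TraesCS1D02G330500 on 1D and TraesCS7D02G453600 on 7D. TraesCS1D02G330500, 543 kb from the D copy, is described as poly (ADP-ribose) polymerase 3, an enzyme family that modifies proteins with ADP-ribose. It had 1.51, 0.609 and 0.306 FPKM in white and 25.1, 41.5 and 12.2 FPKM in purple replicates 1, 2 and 3, a log2 difference of 5.08 ± 0.82 (SE; adjusted p by edgeR = 0.0242). The groups did not overlap, but edgeR no longer called the gene without white replicate 2 or 3 or purple replicate 1 or 2. Its counterparts by description, TraesCS1A02G328000 and TraesCS1B02G341700, had means of 1.45 and 0.530 FPKM in white and 30.2 and 26.1 FPKM in the purple libraries (adjusted p by edgeR = 0.0565 and 0.0846). The order of the purple libraries differed from that of the agglutinin copies, since purple replicate 3 was the lowest for each of the 3 polymerase genes. TraesCS7D02G453600, described as a hypothetical protein and 341 kb from the silent 7D agglutinin gene, had 0.527 ± 0.21 and 4.72 ± 1.5 FPKM (adjusted p by edgeR = 0.0165). Without white replicate 2 or purple replicate 2 none of the neighbours was called higher, without white replicate 3 or purple replicate 1 a single neighbour was, and without purple replicate 3 there were 5.

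**Figure D3:**
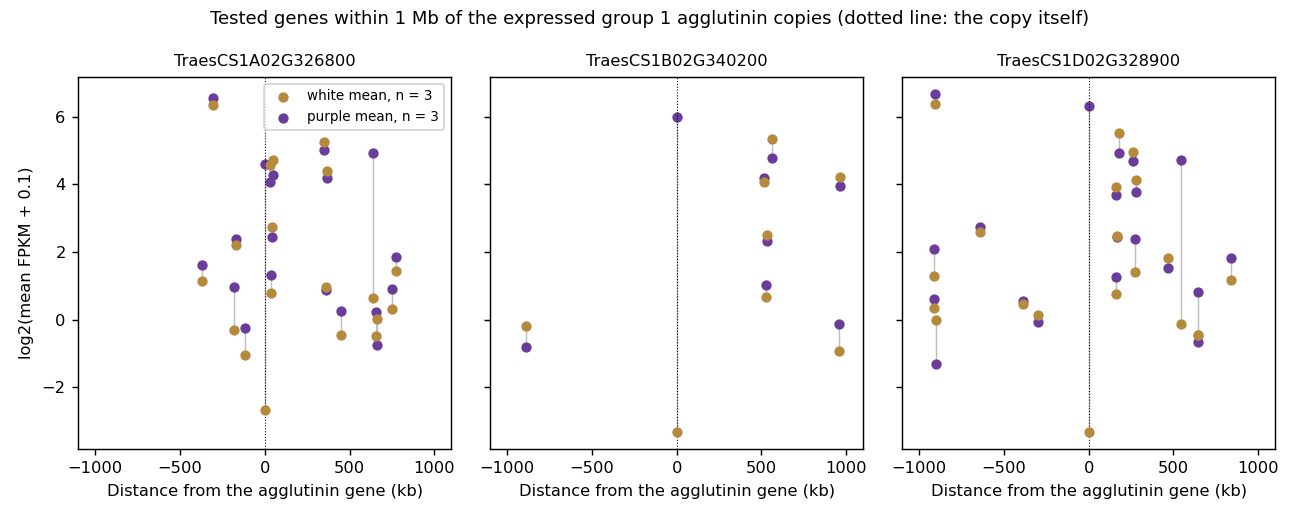
Mean level of each tested gene within 1 Mb of the expressed agglutinin copies on 1A, 1B and 1D, as log2(mean FPKM + 0.1) in white and purple grain (n = 3 each), against its distance from the copy in kb. At 0 kb the white and purple means are far apart, and at most other distances they lie close together, with the polymerase 3 genes as the widest exceptions on 1A and 1D.

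Chitinases, which cut the polymer that the lectin binds and some of which carry a hevein domain, were called higher by edgeR about as often as all tested genes. Of 82 genes by description 36 were tested, and 1 was higher in purple grain by edgeR (against 2.87% of all tested genes). None was lower by edgeR. At an unadjusted p under 0.05, 6 were higher and 4 lower, where 14.2% of all tested genes were higher and 12.6% lower. With DESeq2, which called 9.41% of all tested genes higher and 6.2% lower, 6 chitinase genes were higher and 3 lower, and with limma 1 and 1. The median log2 difference of the 36 was 0.25, and it was positive for 24 of them, where it was positive for 24717 of all 48492 tested genes. The called gene, TraesCS1D02G207100 (1D, 293523905 to 293525500), described as chitinase 8, had 0.420, 0.466 and 0.231 FPKM in white and 4.73, 3.14 and 1.30 FPKM in the purple libraries (log2 difference 3.13 ± 0.57, SE; adjusted p by edgeR = 0.0327). It was not called without white replicate 1, 2 or 3 or purple replicate 1 or 2, and without purple replicate 3 there were 5 higher chitinase genes. The most expressed, the class II chitinase gene TraesCS7A02G548100, had 525, 901 and 334 FPKM in white and 2114, 2000 and 676 FPKM in the purple libraries, and the groups overlapped (adjusted p by edgeR = 0.142). Chitinase transcripts summed to 2317, 3262 and 1444 FPKM in white and 5833, 5037 and 1859 FPKM in purple replicates 1, 2 and 3, with purple replicate 3 again lowest of the purple libraries, as for the embryo and aleurone markers.

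The list of hevein-like and pathogenesis-related 4 proteins, small secreted defence proteins, had 3 higher genes of 11 tested by edgeR. Over all tested genes the share was 2.87%. The 3 called genes are all described as TaWIN2, a 14-3-3 regulatory protein that the name pattern took in, and not as chitin-binding proteins. Without genes named WIN1 or WIN2, a list trimmed by name after the values could be seen, 4 genes were tested and edgeR called 0. At an unadjusted p under 0.05, 3 of the 4 were higher (14.2% over all tested genes). DESeq2 called 3 higher (9.41%) and limma 0 (3.17%). Without purple replicate 3 edgeR called 2 of these 4 higher. The most expressed, the wheatwin-2 gene TraesCS3D02G524700, had 316, 350 and 270 FPKM in white and 1290, 1377 and 319 FPKM in purple replicates 1, 2 and 3 (adjusted p by edgeR = 0.114). Purple replicate 3 lay among the white libraries for wheatwin-2, whereas it held the second-highest agglutinin level. In the list as fixed, the count of 3 became 1 without white replicate 1 or purple replicate 1, 0 without white replicate 2 or 3 or purple replicate 2, and 5 without purple replicate 3.

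Other genes described as lectins were at or near 0. Of 16 genes described as a lectin or agglutinin, receptor kinases and the 10 agglutinin isolectin genes left out, 3 had any counts. The highest sum over the 6 libraries was 18 counts, for the mannose/glucose-specific lectin gene TraesCS6A02G105700, all of them in purple replicates 1 and 3. No gene of this list passed the expression filter.

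Thionins and defensins, the small cysteine-rich peptides of cereal grain that act against microbes, changed in both directions. The pattern as fixed also took in enzymes whose names contain methionine, and with these 9 genes of 109 tested were higher and 5 lower by edgeR, against 2.87% and 2.32% of all tested genes. Trimmed by name after the values could be seen, the list had 8 higher and 5 lower genes of 54. The most expressed, the beta-purothionin gene TraesCS1A02G398200, had 10062, 5388 and 7767 FPKM in white and 4188, 3971 and 9627 FPKM in the purple libraries, with overlapping groups (adjusted p by edgeR = 0.779). Among the higher genes, the defensin gene TraesCS5B02G329200 (5B, 513325497 to 513326091) had 141, 55.5 and 33.1 FPKM in the white libraries and 1658, 1621 and 386 FPKM in the purple ones (adjusted p by edgeR = 0.0479). Its groups did not overlap, purple replicate 3 was the lowest purple library, and it was not called without white replicate 2 or 3 or purple replicate 1 or 2. The defensin gene TraesCS7B02G244000 had 1.64, 0.991 and 0 FPKM in the white libraries and 220, 343 and 254 FPKM in the purple ones (adjusted p by edgeR = 0.0170), and was not called without white replicate 2 or purple replicate 2. The defensin gene TraesCS1B02G018000 (1B, 8710313 to 8710965) had 114, 17.5 and 23.4 FPKM in the white libraries and 0 counts in each purple one (adjusted p by edgeR = 0.0297). It was not called without white replicate 2 or 3 or purple replicate 1 or 2. The defensin gene TraesCS1B02G018100 beside it had 4.06 ± 2.7 FPKM in the white libraries and 0 counts in the purple ones (adjusted p by edgeR = 0.0221), and was not called without white replicate 2 or 3 or purple replicate 2. Without purple replicate 2 edgeR called 0 of the trimmed list, and 1 higher and 0 lower with white replicate 2 left out. It called 3 higher and 1 lower when white replicate 3 or purple replicate 1 was left out, and 12 higher and 11 lower when purple replicate 3 was left out.

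Genes of the route to the vacuole had 1 lower gene of 25 tested, against 2.32% of all tested genes, and a median log2 difference of -0.55. That gene, the vacuolar sorting receptor gene TraesCS1B02G148200 (1B, 216451847 to 216499626), had 2.71, 4.09 and 2.86 FPKM in white and 0.802, 0.848 and 0.766 FPKM in the purple libraries, a log2 difference of -1.87 with an SE of 0.22 (adjusted p by edgeR = 0.0103). It stayed called without any single library, and 5 genes of the list were lower and 3 higher without purple replicate 3. None was higher by edgeR with all libraries. At an unadjusted p under 0.05 by edgeR, 3 of the 25 were higher and 7 lower (14.2% and 12.6% over all tested genes). DESeq2 called 2 higher and 6 lower (9.41% and 6.2%), and limma 0 higher and 4 lower (3.17% and 3.47%). The log2 difference was positive for 6 of the 25. The most expressed, the vacuolar processing enzyme gene TraesCS6A02G238500, which encodes a protease of storage vacuoles, had 44.5, 41.4 and 25.7 FPKM in white and 115, 140 and 32.9 FPKM in the purple libraries, with overlapping groups (adjusted p by edgeR = 0.155).

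Genes of abscisic acid synthesis, perception and response had 0 calls by edgeR among 24 tested. At an unadjusted p under 0.05, 6 of the 24 were higher and 4 lower (14.2% and 12.6% over all tested genes). DESeq2 called 6 higher and 1 lower (9.41% and 6.2%), and limma called 2 higher and 0 lower (3.17% and 3.47%). The most expressed, TraesCS7A02G170600, described as an ABSCISIC ACID-INSENSITIVE 5-like transcription factor, had 22.3, 24.9 and 19.1 FPKM in white and 14.0, 8.48 and 11.3 FPKM in the purple libraries (adjusted p by edgeR = 0.0746). The groups did not overlap for this gene, with all purple libraries below the white ones, as for 19.9% of all tested genes. Without white replicate 1 or white replicate 3, edgeR called 1 gene of the list higher, and without purple replicate 3 it called 2 higher and 2 lower.

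**Figure D4:**
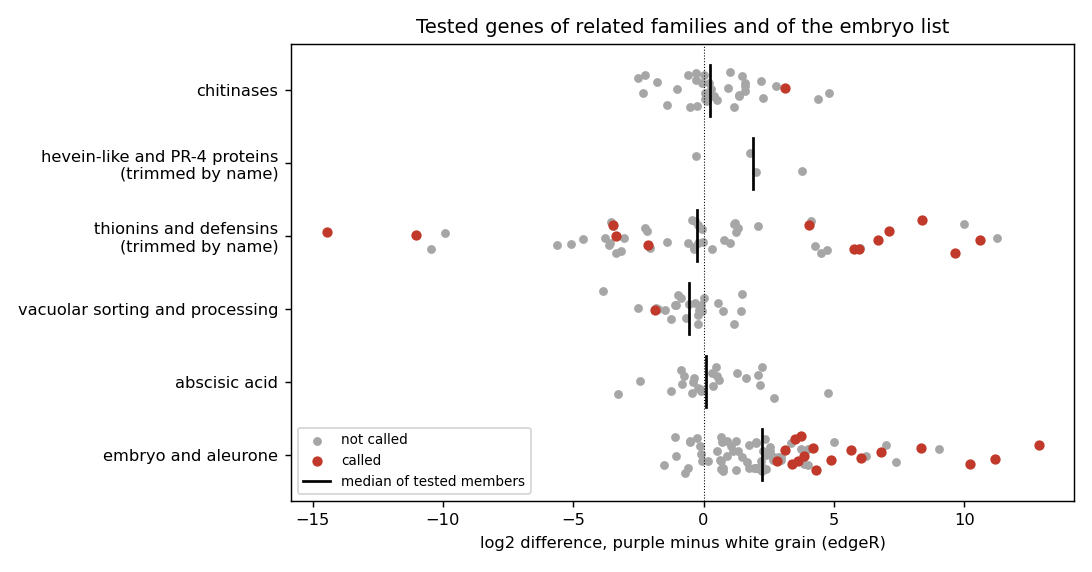
Log2 difference, purple minus white grain (edgeR), of every tested gene of 5 lists related to the lectin by function or route and of the embryo and aleurone markers. The hevein-like list and the thionin and defensin list are shown as trimmed by name after the values could be seen. Red points passed the test, values of genes with 0 counts in a grain type depend on the small count the fit adds, and the black bar is the median of the tested genes, 2.26 for the embryo and aleurone markers and 0.25 for chitinases.

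Of 18100 other genes averaging 5 FPKM or more, the B copy was the most like the D copy over the 6 libraries (Pearson r of log2(FPKM + 1) 0.9996), and the D copy the most like the B copy. Both copies were picked because their levels differed between the grain types, and near-identical copies can share reads. A high r between them was therefore largely fixed in advance, and nothing is read from it. The A copy held place 6 for the D copy (r = 0.9957) and place 8 for the B copy (r = 0.9934). The same 4 genes held places 2 to 5 for both copies. They were TraesCS4A02G345900, described as receptor-like protein 12, TraesCS6A02G220800, described as replication factor A protein 2, a subunit of the protein that coats single-stranded DNA, and the hypothetical protein genes TraesCS2D02G461400 and TraesCS1B02G278800. TraesCS4A02G345900 had 0.0247, 0 and 0 FPKM in white and 18.7, 36.9 and 42.9 FPKM in purple replicates 1, 2 and 3. TraesCS6A02G220800 had 9.32, 9.16 and 7.85 FPKM in white and 31.4, 42.5 and 41.4 FPKM in the purple libraries. For these genes, as for the agglutinin copies, purple replicate 1 was the lowest purple library. These correlations rest on 6 libraries in 2 groups, and 142 genes reached an r of at least 0.95 with the D copy.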

How the data were processed

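RNA sequencing of grain was compared between white and purple grain with 3 libraries each. Cutadapt, HISAT2 and StringTie are named in the submitters' processing notes. Roles and versions of these tools, strand setting, genome build and annotation are not given in the sources used here. The deposited table gives raw counts for each gene and library, per the file headers, and the authors' FPKM values. A gene without counts stands at 0.0001 in the FPKM columns (100% of such entries), which was taken as 0. Of its columns, 12 match no labelled sample and were not used.

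Counts were tested with edgeR 4.0.16 (TMM scaling, trended dispersion, quasi-likelihood test, no replicate block) in R 4.3.3 on 48492 genes averaging 0.5 FPKM or more. A call required a p under 0.05 after Benjamini-Hochberg adjustment over all of them and a log2 difference of 1 or more in either direction. Alternatives were DESeq2 1.42.0, limma 3.58.1 on log2(FPKM + 1), other scalings and filters, a replicate block and leaving out each library. In simulated counts for these 48492 genes, edgeR recovered 0%, 16%, 70% and 100% of 50 genes each changed 2-, 4-, 8- and 16-fold, with 2 false calls. The simulation gave every gene the same spread (coefficient of variation 0.488) and took the changed genes from those above a minimum count. It held no library that stood apart as purple replicate 3 does, so these figures may not hold for the real counts.

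The 10 genes, the lists and the tests were chosen with earlier results of these data known. Lists were patterns on descriptions. Named genes were all 10 members, the most expressed gene and up to 2 called genes (mean of at least 1 FPKM) of each list, the genes on either side of a member, called neighbours within 1 Mb, and the 5 most correlated genes. The polymerase genes on 1A and 1B, the embryo marker genes, further lectin genes, 2 higher defensin genes and TraesCS6A02G103300 were named after their values were seen, and some genes under the rule are not named.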

Additional observations from a re-analysis of the deposited data

How the results depend on the processing

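The levels of the D, B and A copies and of the sum of the 10 genes kept their direction under every alternative tried. White levels at or near 0 left no other direction possible, so nothing is read from this. None of the alternatives was run on the group 3 and group 7 genes. With a pseudocount of 1, the log2 ratio was 7.32 for the sum of the 10 genes, 6.34 for the D, 6.01 for the B and 4.58 for the A copy, and with 0.01 it was 13.0, 12.6 and 8.53 for the D, B and A copies. The cause lies in the construction, since white levels are at or near 0. Leaving out single libraries gave 9.18 to 9.95 for the sum, 9.23 to 10.0 for the D, 9.03 to 9.67 for the B and 6.68 to 7.67 for the A copy, and a share of the D copy of 43.6% to 46.3%.

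Counts of called genes depended more on the tool and on single libraries; the cause was not tested. Over all tested genes, edgeR called 1391 higher and 1127 lower, and DESeq2 4561 and 3008. Leaving out single libraries gave 229 to 2515 higher and 355 to 2417 lower, the lowest without purple replicate 2 and the highest without purple replicate 3. Left-out ranges for higher and lower genes were 0 to 5 and 0 for chitinases, 0 to 5 and 0 to 1 for hevein-like proteins, 0 to 14 and 0 to 11 for thionins and defensins, 0 to 3 and 1 to 5 for the vacuolar route, 0 to 2 and 0 to 2 for abscisic acid, and 0 to 5 and 0 to 1 for neighbours. DESeq2 called 6 higher and 3 lower chitinases, 6 higher hevein-like, 19 higher and 20 lower thionin and defensin, 2 and 6 vacuolar, 6 and 1 abscisic acid genes and 12 higher neighbours. Limma called 1 higher and 1 lower chitinase, 3 higher hevein-like, and 13 higher and 13 lower thionin and defensin genes. It also called 4 lower vacuolar and 2 higher abscisic acid genes, and 4 higher and 1 lower neighbours. Over all tested genes, DESeq2 called 9.41% higher and 6.2% lower, and limma 3.17% and 3.47%. Counts under the other scalings and filters are given in part. Scaling to total counts gave 1 lower chitinase and 2 lower vacuolar genes, and shifted the median over all tested genes (log2) from 0.02 to -0.11. Without a filter beyond 1 count there were 2 lower vacuolar genes and 1 lower neighbour. A window of 0.5 Mb left 1 higher neighbour, and the hevein-like list trimmed by name had 0 higher genes.

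The replicate numbers matched the closest libraries in part. Same-numbered libraries correlated in their deviations from the group means at 0.183, 0.00657 and 0.336. The pairs at 0.183 and 0.336 were each the best match for both of their libraries. White replicate 2 correlated best with purple replicate 1 (0.107), and purple replicate 2 with white replicate 1 (0.0918). Whether the replicate numbers mark paired libraries was not tested. With the replicate block edgeR called 1551 higher and 996 lower genes, with 1 lower chitinase, 2 lower vacuolar and 1 higher abscisic acid gene. Embryo and aleurone markers had 29 higher genes with the block, 48 by DESeq2 and 17 by edgeR without it.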

Other observations

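Genes annotated in the deposited table with the GO term chitin binding, 180 apart from the agglutinin isolectin genes, were looked at after the data had been seen. Of 65 tested, 2 were lower in purple grain by edgeR, against 2.32% of all tested genes. No gene of this list was higher by edgeR, 11 were at an unadjusted p under 0.05 (14.2% over all tested genes), DESeq2 called 11 higher (9.41%) and limma 1 (3.17%). The xylanase inhibitor gene TraesCS1B02G064600 (1B, 49016574 to 49017497), whose product blocks fungal xylanases, had 61.2, 72.8 and 33.9 FPKM in white and 1.49, 2.29 and 0.769 FPKM in purple replicates 1, 2 and 3 (adjusted p by edgeR = 0.00714). It stayed called without any single library. TraesCS6D02G199500, described only as a predicted protein, stood at 7.93 ± 3.1 FPKM (SD, n = 3) in the white and 0.602 ± 0.18 in the purple libraries (adjusted p by edgeR = 0.00897), a call lost without purple replicate 2. Without purple replicate 3, edgeR called 10 genes of the list higher and 2 lower. With white replicate 1 left out, 4 were higher and 2 lower. The summed level of the list was 2087, 1597 and 1427 FPKM in the white and 7244, 7590 and 1643 FPKM in the purple libraries, so purple replicate 3 lay within the range of the white libraries.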
